A study of Mus musculus with 6 samples.

Results

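Imprinted genes were followed in bulk RNA-seq of mouse embryonic fibroblasts (MEFs) that lack the mitochondrial inner membrane protease YME1L. The set was a list of 56 genes known to be expressed mainly from a single parental allele in mouse, 29 of them maternally and 27 paternally expressed, in 19 imprinted clusters. For 18 of them this is largely limited to tissues such as placenta or brain. A counted locus was taken where its gene name, split at commas, held a listed gene. These 56 genes stood against 51499 counted loci, of which 13867 passed a filter on low counts and entered the comparison, and 37 of the 56 imprinted genes were among them.

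Both genotypes came from fibroblasts of mice with floxed Yme1l alleles, made immortal with SV40 and exposed to Cre, and single clones were typed for the deletion. WT cells (Yme1l fl/fl) were clones in which the floxed alleles were still present, and Yme1l-/- cells (also written YKO) were clones in which both had been deleted. Each genotype was represented by 3 cultures, and how many clones these cultures represent is not given in the sources used here, so a difference between genotypes and a difference between clones cannot be told apart. Because the samples were bulk cultures, fewer cells of a type and less RNA per cell cannot be told apart either.

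Imprinted genes carry a DNA methylation mark set in the egg or the sperm at a differentially methylated region, and the mark decides which parental copy is transcribed. Genes of a cluster share such a control region, and a long non-coding RNA such as Airn, Kcnq1ot1 or H19 is often made from the opposite parental chromosome to the protein-coding genes it accompanies. Many of the encoded proteins control fetal growth, with paternally expressed genes often promoting and maternally expressed genes often restraining it. The counts used here do not separate the parental alleles, so each value is the sum over both copies.

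Promoter sequences are shown for 6 of the genes with large differences, with their CpG dinucleotides, the sites where DNA can be methylated. Whether a window lies within a differentially methylated region was not examined, and DNA methylation was not measured. Each window runs from 250 bases before to 50 bases after a RefSeq transcription start (GRCm38.p6) and is written 5′ to 3′ on the strand of the gene, with every CpG in capitals. Where RefSeq lists several starts, the window with the most CpG is printed. The windows are chr7:62348027-62348326 on the plus strand for Ndn, chr7:6730370-6730669 on the minus strand for Peg3, chr9:89909525-89909824 on the plus strand for Rasgrf1, chr7:143502475-143502774 on the minus strand for Phlda2, chr6:30737800-30738099 on the plus strand for Mest and chr6:5390160-5390459 on the plus strand for Asb4.
Ndn: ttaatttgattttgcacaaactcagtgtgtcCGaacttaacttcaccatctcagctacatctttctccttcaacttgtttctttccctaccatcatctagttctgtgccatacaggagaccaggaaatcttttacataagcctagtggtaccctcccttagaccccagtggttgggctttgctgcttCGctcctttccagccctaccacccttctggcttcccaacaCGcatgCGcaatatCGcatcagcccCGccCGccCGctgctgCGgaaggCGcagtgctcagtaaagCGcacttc
Peg3: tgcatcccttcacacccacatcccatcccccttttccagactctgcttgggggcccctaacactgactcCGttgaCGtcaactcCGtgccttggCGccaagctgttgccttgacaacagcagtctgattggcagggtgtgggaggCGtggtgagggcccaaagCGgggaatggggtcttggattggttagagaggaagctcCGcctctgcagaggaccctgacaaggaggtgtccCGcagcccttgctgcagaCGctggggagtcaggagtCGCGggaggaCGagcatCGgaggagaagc
Rasgrf1: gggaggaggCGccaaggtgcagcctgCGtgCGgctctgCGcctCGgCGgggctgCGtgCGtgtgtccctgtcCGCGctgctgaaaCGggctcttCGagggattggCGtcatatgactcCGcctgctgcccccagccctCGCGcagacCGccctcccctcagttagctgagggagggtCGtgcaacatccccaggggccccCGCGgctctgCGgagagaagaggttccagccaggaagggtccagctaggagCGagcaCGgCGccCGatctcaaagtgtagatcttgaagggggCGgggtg
Phlda2: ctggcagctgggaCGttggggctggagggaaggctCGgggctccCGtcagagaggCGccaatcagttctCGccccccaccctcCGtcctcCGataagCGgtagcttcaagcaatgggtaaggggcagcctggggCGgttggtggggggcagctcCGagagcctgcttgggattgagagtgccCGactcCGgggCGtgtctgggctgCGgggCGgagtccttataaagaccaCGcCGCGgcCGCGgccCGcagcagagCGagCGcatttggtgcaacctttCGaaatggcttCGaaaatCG
Mest: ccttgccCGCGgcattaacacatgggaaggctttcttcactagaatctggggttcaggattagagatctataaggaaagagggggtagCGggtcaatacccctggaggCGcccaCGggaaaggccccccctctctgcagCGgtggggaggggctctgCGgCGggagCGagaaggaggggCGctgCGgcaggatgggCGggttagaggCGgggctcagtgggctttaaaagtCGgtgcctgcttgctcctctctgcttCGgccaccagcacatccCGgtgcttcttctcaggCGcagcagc
Asb4: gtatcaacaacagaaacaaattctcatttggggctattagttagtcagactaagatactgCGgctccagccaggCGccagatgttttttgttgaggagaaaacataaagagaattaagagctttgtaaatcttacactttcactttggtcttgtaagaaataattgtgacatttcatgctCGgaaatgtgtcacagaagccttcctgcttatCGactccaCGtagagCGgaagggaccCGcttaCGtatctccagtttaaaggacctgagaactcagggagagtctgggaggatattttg

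The Rasgrf1 and Phlda2 windows each held 26 CpG, a number reached by 18.5% of the 27025 genes with such a window. Mest held 17, Peg3 13, Ndn 11 and Asb4 8, and the last of these equals the median of 8 over all genes. Of the 56 imprinted genes, 45 had a window, with 0 to 48 CpG and a median of 17. The hexamer TGCCGC, read on either strand, is the core of the motif bound by the imprint-protecting protein ZFP57 when its CpG is methylated. It was present in 13 of the 45 windows (28.9%) and in 12.2% of all genes' windows, and the Mest window held 2 copies. The hexamer contains a CpG, so windows rich in CpG hold it more often by composition, and this count is a description of the sequence without a test.

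H19 and Mest also host microRNAs, and the RefSeq mature sequences are given with the seed (bases 2 to 8) in capitals to show what travels in these transcripts. The H19 locus of the count table joined H19 with Mir675, at chr7:142577112-142577133 (5p arm) and chr7:142577078-142577099 (3p arm), minus strand. The Mest locus spans Mir335, at chr6:30741314-30741336 (5p arm) and chr6:30741354-30741375 (3p arm), plus strand. The 4 seeds differ from each other, and mature microRNAs were not measured in these poly(A)-selected libraries.
mmu-miR-675-5p: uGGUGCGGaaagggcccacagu
mmu-miR-675-3p: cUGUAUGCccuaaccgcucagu
mmu-miR-335-5p: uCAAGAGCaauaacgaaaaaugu
mmu-miR-335-3p: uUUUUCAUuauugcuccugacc

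WT replicate 2 stood apart from the other WT cultures. Its counts differed from theirs by 32.8 and 35.2 chi-square units per degree of freedom, against 12 between those 2, and Col3a1, a fibroblast collagen, had 301.2 CPM in it against 86.3 and 91.1 CPM. Without that culture 10 imprinted genes rose and 19 fell, and the calls lost were those of Peg13 and Commd1. By the same measure Yme1l-/- replicate 1 differed from the other Yme1l-/- cultures by 19.8 and 15.6, against 7.91 between those.

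Of the 37 imprinted genes tested, 10 rose, 21 fell and 6 did not pass the threshold (edgeR's quasi-likelihood test, adjusted p under 0.05). After removal of chromosome medians 7 rose and 23 fell, with Copg2, Pon2 and Trappc9 no longer called and Peg10 and Sgce called lower. In the fit without this removal, to which the shares below belong, 83.8% of the tested genes were called, against 67.7% of all loci tested. The shares called higher and lower over all loci were 33.6% and 34.1%. Levels are given in CPM, counts scaled to library size. A difference of at least 2-fold was called for 5 genes upwards and 10 downwards, against 9.1% and 8.63% of all loci. In 31 of the 37 the WT and Yme1l-/- libraries did not overlap, against 71.9% of all loci. The median log2 fold change (Yme1l-/- over WT) was -0.24 over these 37 genes and -0.004 over all loci tested. It was -0.455 without the filter on low counts and -0.124 with at least 10 counts in every sample. These counts cover only genes that passed the filter, and 5 of them stood at no more than 3 counts in every library of the other genotype, so a gene of that kind could pass only through the genotype in which it was high. No test of the set was made.

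**Figure D1:**
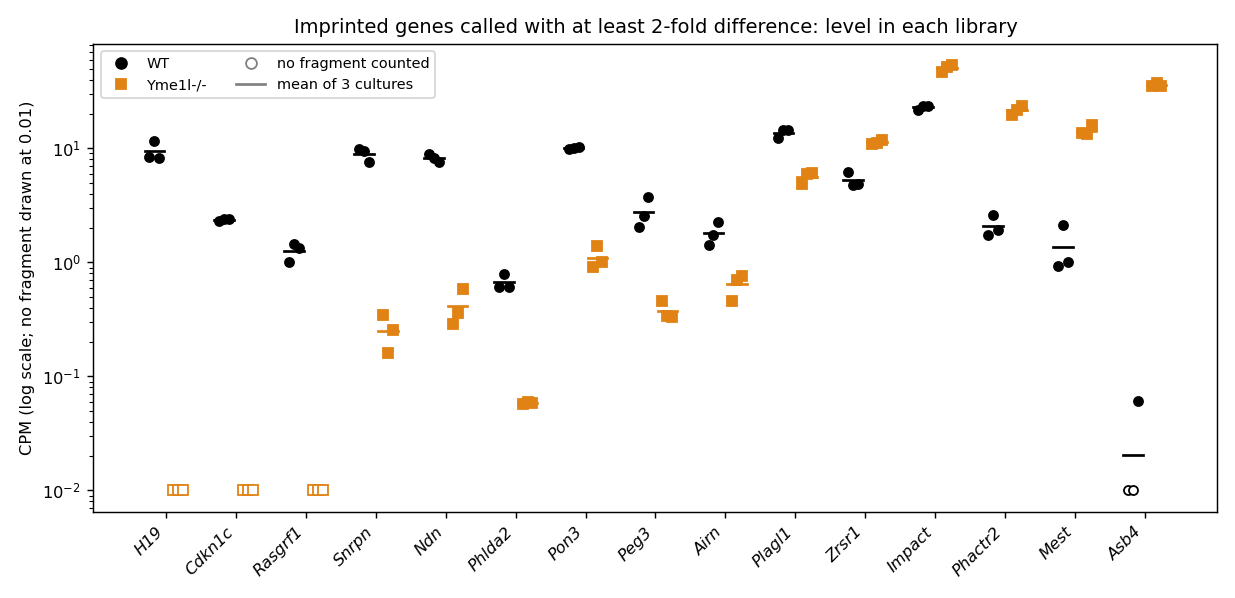
Level of the 15 imprinted genes with a called difference of at least 2-fold, in CPM on a log axis, for 3 WT cultures (black circles) and 3 Yme1l-/- cultures (orange squares), with the mean as a line. Open symbols at 0.01 mark libraries with no fragment, which are all 3 Yme1l-/- cultures for H19, Cdkn1c and Rasgrf1 and 2 WT cultures for Asb4, and the genotypes do not overlap for any gene shown.

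Genes of either parental origin were found in both directions. Of 19 maternally expressed genes tested, 6 rose and 12 fell with a median log2 fold change of -0.24, and of 18 paternally expressed genes tested, 4 rose and 9 fell with a median of -0.20. At least 2-fold, 2 maternally and 3 paternally expressed genes rose, and 4 and 6 fell. With chromosome medians removed, 3 maternally expressed genes were called higher, with the calls of Copg2, Pon2 and Trappc9 lost, and without the filter on low counts the maternal median was -0.396. The called share was 94.7% of the maternally and 72.2% of the paternally expressed genes tested, against 67.7% of all loci, with 9.1% and 8.63% of all loci called at least 2-fold higher and lower. The paternal median was -0.033 without merged loci and -0.568 without the filter on low counts. Whether the classes differed was not tested. Among the 24 tested genes with imprinting reported in most embryonic tissues, 6 rose and 13 fell (79.2% called). Among the 13 whose imprinting is largely limited to tissues such as placenta or brain, 4 rose and 8 fell (92.3% called). Of these 13 tested genes, 12 were maternally and 1 paternally expressed, so the splits by parental origin and by tissue overlap and cannot be told apart.

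**Figure D2:**
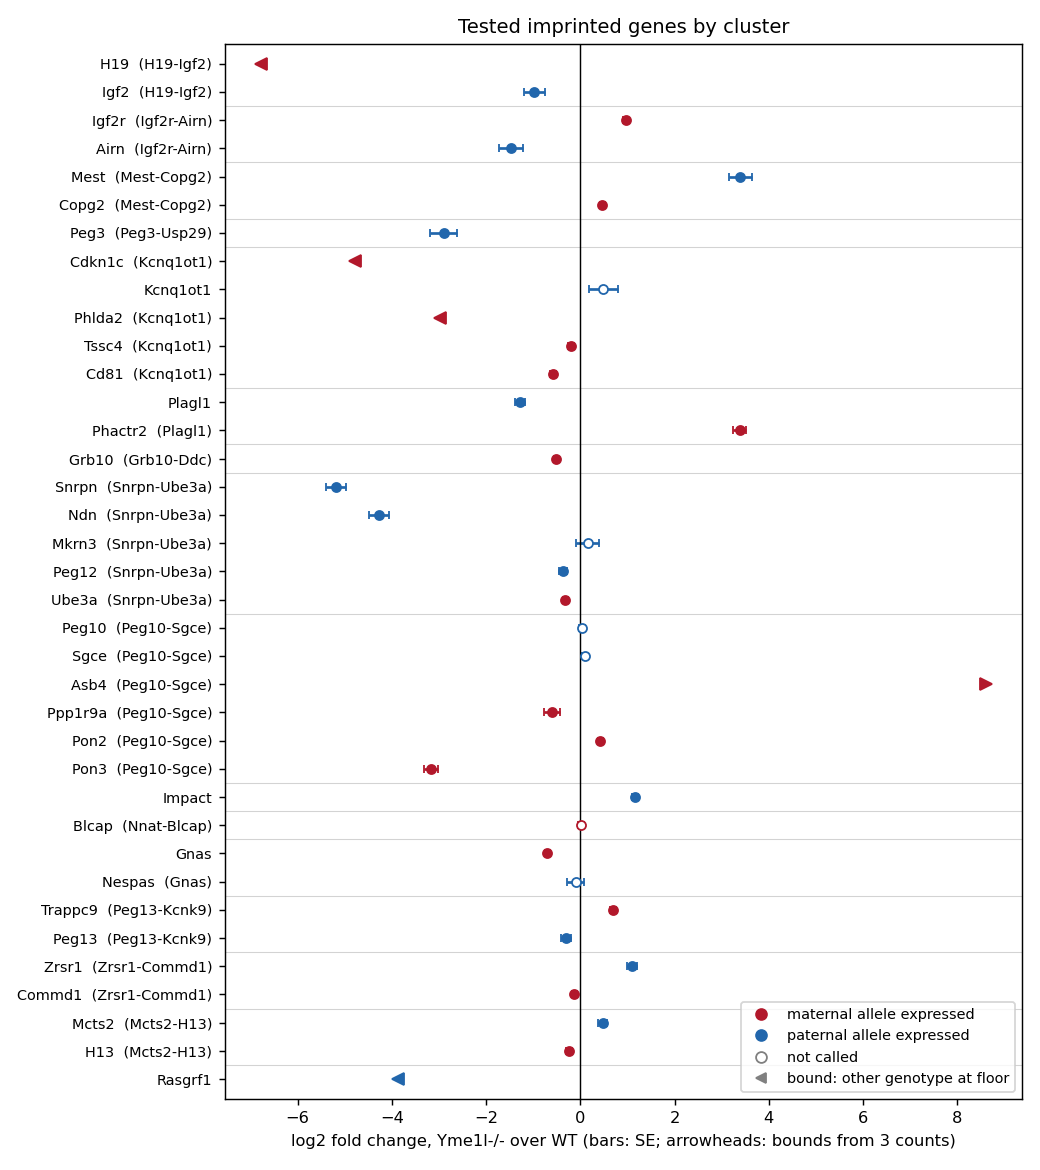
Log2 fold change (Yme1l-/- over WT) of the 37 tested imprinted genes, grouped by cluster, with the standard error as a bar, in red for maternal and in blue for paternal expression. Open circles are the 6 genes that were not called, and arrowheads mark the bounds for the 5 genes at 3 counts or fewer in every library of a genotype. Clusters such as Igf2r-Airn and Plagl1 hold genes on both sides of 0.

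H19 and Igf2 lie side by side on chromosome 7 and share a control region bound by CTCF on the maternal copy. H19, a maternally expressed long non-coding RNA (chr7:142575529-142578143, minus strand), had 277, 376 and 270 fragments in the WT cultures and none in any Yme1l-/- culture. The WT level was 9.37 ± 1.83 CPM (SD, n = 3), and the level in Yme1l-/- cells was at least 109-fold lower (edgeR, adjusted p = 1.83e-08), with the bound set by 3 counts in the library where they weigh most. Igf2, the paternally expressed fetal growth factor, was close to 1 CPM in WT, with 1.03, 0.947 and 1.01 CPM against 0.486, 0.535 and 0.491 CPM. Both genes of the pair were lower in every Yme1l-/- culture, with a log2 fold change of -0.97 ± 0.23 (SE) for Igf2 (edgeR, adjusted p = 0.00274). The counted H19 and Igf2 loci each join more than one gene name, Mir675 for H19 and a further transcript for Igf2, and their fragments cannot be divided.

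The Kcnq1ot1 cluster further along chromosome 7 holds several maternally expressed growth restrainers that the non-coding RNA Kcnq1ot1 keeps silent on the paternal copy. Cdkn1c, which encodes the cyclin-dependent kinase inhibitor p57 (chr7:143458339-143461050), had 76, 79 and 78 fragments in WT and none in Yme1l-/- cultures, at least 27.6-fold lower than 2.37 ± 0.0618 CPM (edgeR, adjusted p = 1.87e-07). Phlda2, a pleckstrin-homology protein that limits placental growth, had 20, 26 and 20 fragments in WT and 2, 3 and 3 in Yme1l-/- cells. Its log2 fold change was -3.445 ± 0.40 (edgeR, adjusted p = 1.45e-05), at a WT level of only 0.67 ± 0.107 CPM. Set at 3 counts it was 7.82-fold lower, but the counts themselves reached 3, so this value is not a limit. The highest Yme1l-/- library of Phlda2 thus had fewer fragments than the lowest WT library.

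Kcnq1ot1 itself was not called. It had 4.32, 4.55 and 8.54 CPM in WT and 5.97, 8.63 and 9.64 CPM in Yme1l-/- cultures, so the WT replicate 3 fell among the Yme1l-/- values. Its log2 fold change was 0.49 ± 0.31 (edgeR, adjusted p = 0.208), and 0.87 without WT replicate 3 (adjusted p = 0.00308). With the replicate number as a block it was 0.51 (adjusted p = 0.00558). Tssc4, a splicing-related gene, and the tetraspanin Cd81 at the outer edge of the cluster fell slightly, by 0.20 ± 0.07 (adjusted p = 0.0168) and 0.58 ± 0.07 on the log2 scale (edgeR, adjusted p = 1.71e-05). The Tssc4 call was lost without WT replicate 1 (adjusted p = 0.0582) and without Yme1l-/- replicate 2 or 3 (0.0707 and 0.075). Slc22a18, an organic cation transporter, had 0 to 2 fragments per library, and the trophoblast transcription factor Ascl2 had none.

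In the Igf2r-Airn cluster on chromosome 17, the maternally expressed receptor and the paternally expressed antisense RNA that silences it moved in opposite directions. Igf2r, the clearance receptor for IGF2 and carrier of lysosomal enzymes (chr17:12682406-12769664, minus strand), stood at 133, 141 and 143 CPM in WT and at 251, 292 and 268 CPM in Yme1l-/- cultures. Its log2 fold change was 0.96 ± 0.06 (edgeR, adjusted p = 7.32e-08). Airn (chr17:12741311-12860136, plus strand) had 1.42, 1.74 and 2.27 CPM in WT and 0.457, 0.694 and 0.765 CPM in Yme1l-/- cells. Airn therefore fell by 1.47 ± 0.26 on the log2 scale (edgeR, adjusted p = 3.54e-04), and neither gene had overlapping libraries. The gene bodies overlap on opposite strands without sharing exons, and the strand setting of the counting is not given in the sources used here.

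Mest, a paternally expressed hydrolase-like gene of mesoderm on chromosome 6 (chr6:30723547-30748465), rose from 0.936, 2.11 and 1.01 CPM in WT to 13.5, 13.3 and 16.0 CPM. The lowest Yme1l-/- library was several times the highest WT library, with a log2 fold change of 3.40 ± 0.25 (edgeR, adjusted p = 3.63e-06), and 3.87 without WT replicate 2 (adjusted p = 5.27e-08). Copg2, a coatomer subunit whose last exon overlaps that of Mest on the opposite strand, rose from 44.9 ± 2.53 to 61.9 ± 1.17 CPM, a log2 fold change of 0.47 ± 0.05 (edgeR, adjusted p = 1.12e-05). Loci of chromosome 6 had a median log2 fold change of 0.34, and with chromosome medians removed Copg2 had 0.12 (adjusted p = 0.0583). The maternally expressed transcription factor Klf14 had no fragment in any library.

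On proximal chromosome 7, Peg3, a paternally expressed zinc finger gene with roles in maternal behaviour and growth (chr7:6703892-6730431), had 2.02, 2.54 and 3.77 CPM in WT and 0.457, 0.337 and 0.334 CPM in Yme1l-/- cultures. Its log2 fold change was -2.90 ± 0.28 (edgeR, adjusted p = 3.66e-06), and the genotypes did not overlap. Its partners were close to the limit of detection: Usp29 had 0, 2 and 3 fragments in WT and none in Yme1l-/- cells, and Zim1 had none in any library.

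The Snrpn-Ube3a cluster on central chromosome 7 is the mouse counterpart of the Prader-Willi and Angelman region. Snrpn, the paternally expressed splicing protein SmN, had 9.76, 9.38 and 7.63 CPM in WT against 0.343, 0.159 and 0.255 CPM, which left 2.83% of the WT level. The log2 fold change was -5.18 ± 0.22 (edgeR, adjusted p = 3.63e-09), for a locus that joins Snrpn with Snurf, which is read from the same transcript, and a further gene. Ndn, the paternally expressed growth suppressor necdin (chr7:62346569-62350262), had 8.85, 8.16 and 7.53 CPM in WT and 0.286, 0.357 and 0.589 CPM in Yme1l-/- cells. It fell by 4.27 ± 0.21 on the log2 scale (edgeR, adjusted p = 1.13e-08), so that 5.02% of the WT level remained.

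The other genes of that cluster differed less. Mkrn3, a paternally expressed ubiquitin ligase close to Ndn, had 2.87, 1.74 and 2.27 CPM in WT and 3.17, 2.78 and 1.79 CPM in Yme1l-/- cells, so the groups overlapped (log2 fold change 0.16 ± 0.24, edgeR, adjusted p = 0.581). Peg12 next to it fell by 0.36 ± 0.08 on the log2 scale (edgeR, adjusted p = 0.00192). Ube3a, the ubiquitin ligase that is maternally expressed in neurons, fell by 0.32 ± 0.05 (edgeR, adjusted p = 1.99e-04). Magel2, a paternally expressed relative of Ndn, had 2, 3 and 4 fragments in WT and none in Yme1l-/- cultures and was not tested.

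The Peg10-Sgce cluster on chromosome 6 held both the largest rise among the imprinted genes and genes with values close to each other in both genotypes. Asb4, a maternally expressed ankyrin-repeat and SOCS-box ubiquitin ligase adaptor (chr6:5383386-5433022), had 0, 0 and 2 fragments in WT and 1234, 1886 and 1789 fragments in Yme1l-/- cultures, or 35.9 ± 1.28 CPM, at least 391-fold higher (edgeR, adjusted p = 2.43e-11). It was among the 9.1% of loci called at least 2-fold higher. Pon3, a lactonase gene nearby, had 9.76, 10.1 and 10.2 CPM in WT and 0.914, 1.39 and 1.00 CPM in Yme1l-/- cells. Asb4 and Pon3 thus moved in opposite directions, with -3.17 ± 0.15 for Pon3 (edgeR, adjusted p = 1.11e-08).

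Between them, Pon2, another paraoxonase gene, rose from 29.7 ± 0.53 to 39.8 ± 0.652 CPM (log2 fold change 0.42 ± 0.05, edgeR, adjusted p = 1.43e-05) and had 0.08 with the chromosome 6 median removed (adjusted p = 0.167). Ppp1r9a, the neuronal actin-binding protein neurabin, fell from 3.09 ± 0.336 to 2.01 ± 0.325 CPM (log2 fold change -0.61 ± 0.17, edgeR, adjusted p = 0.0069), and had -0.95 with that median removed (adjusted p = 4.46e-04). Peg10, a retrotransposon-derived gene needed for placenta formation, had 120, 118 and 137 CPM in WT and 124, 131 and 129 CPM in Yme1l-/- cells (log2 fold change 0.04 ± 0.06, edgeR, adjusted p = 0.623). Sgce, epsilon-sarcoglycan, which is transcribed away from the same promoter region as Peg10, had 38.4 ± 1.27 and 40.9 ± 2.41 CPM (log2 fold change 0.09 ± 0.06, edgeR, adjusted p = 0.186). These paternally expressed neighbours overlapped between genotypes, and with chromosome medians removed both had values below 0, -0.31 (adjusted p = 9.29e-04) for Peg10 and -0.25 (adjusted p = 0.00249) for Sgce. The calcitonin receptor Calcr had no fragment, and the protease inhibitor Tfpi2 had 9, 4 and 3 fragments in WT and none in Yme1l-/- cultures.

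Plagl1 and Phactr2 are neighbours on chromosome 10 with opposite parental expression. Plagl1, a paternally expressed zinc finger growth suppressor (chr10:13060504-13131694), had 12.4, 14.5 and 14.3 CPM in WT and 4.89, 5.93 and 6.07 CPM in Yme1l-/- cells. Phactr2, a phosphatase and actin regulator with maternal expression in placenta (chr10:13207717-13474412), had 1.72, 2.60 and 1.93 CPM in WT and 19.6, 21.8 and 23.6 CPM in Yme1l-/- cells. The pair moved in opposite directions without overlap, with log2 fold changes of -1.28 ± 0.11 for Plagl1 (edgeR, adjusted p = 1.27e-06) and 3.38 ± 0.14 for Phactr2 (edgeR, adjusted p = 3.32e-09).

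Rasgrf1, a paternally expressed Ras exchange factor on chromosome 9 (chr9:89909908-90026977), had 33, 47 and 44 fragments in WT and none in Yme1l-/- cultures, at least 14.7-fold lower than 1.26 ± 0.232 CPM (edgeR, adjusted p = 2.64e-06). The surrounding loci were lower as well. Of 7 other tested loci within 1 Mb, 6 fell and none rose, with a median log2 fold change of -1.23, and Ctsh, the adjacent cathepsin H gene (named after its values were seen), went from 28.4 to 0.0681 CPM, a log2 fold change of -8.68 (edgeR, adjusted p = 5.39e-12).

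Impact, Zrsr1 and Mcts2, all paternally expressed, rose moderately. Impact, a paternally expressed regulator of the GCN2 kinase on chromosome 18, had 21.5, 23.4 and 23.4 CPM in WT and 47.1, 51.8 and 53.5 CPM in Yme1l-/- cells (log2 fold change 1.16 ± 0.06, edgeR, adjusted p = 3.49e-08). Zrsr1, a paternally expressed retrogene for a splicing factor inside Commd1 on chromosome 11, had 6.16, 4.74 and 4.90 CPM in WT and 10.9, 11 and 11.8 CPM (log2 fold change 1.10 ± 0.11, edgeR, adjusted p = 5.67e-06). Each WT library lay below each Yme1l-/- library for both genes. The host Commd1, a copper and NF-kappaB regulator counted in a locus with other genes, differed by -0.13 ± 0.05 on the log2 scale (edgeR, adjusted p = 0.029), and that call was lost without WT replicate 2 (adjusted p = 0.0747) and without Yme1l-/- replicate 2 or 3 (0.106 and 0.11). With the chromosome 11 median removed, Commd1 had -0.48 (adjusted p = 3.48e-06) and Zrsr1 0.74 (adjusted p = 1.63e-04), less than 2-fold. Mcts2, a paternally expressed retrogene within the signal peptide peptidase gene H13 on chromosome 2, rose from 7.63 ± 0.914 to 10.6 ± 0.535 CPM (edgeR, adjusted p = 0.00184) while H13 fell from 149.9 ± 8.02 to 126.9 ± 8.73 CPM (edgeR, adjusted p = 0.00366).

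Gnas and Grb10, a pair of signalling genes, fell by less than 2-fold. Gnas, which encodes the stimulatory G-protein alpha subunit, had 961, 870 and 904 CPM in WT and 578, 552 and 553 CPM in Yme1l-/- cells, a log2 fold change of -0.70 ± 0.05 (edgeR, adjusted p = 4.7e-07). Its antisense RNA Nespas had 1.90 ± 0.162 and 1.78 ± 0.306 CPM with overlapping libraries (edgeR, adjusted p = 0.642). Grb10, an adaptor that restrains insulin and IGF receptor signalling (chr11:11930508-12038683), had 380, 372 and 388 CPM in WT and 272, 268 and 263 CPM in Yme1l-/- cells. It fell by 0.51 ± 0.04 on the log2 scale (edgeR, adjusted p = 6.58e-07), and with the chromosome 11 median of 0.36 removed its log2 fold change was -0.87 (adjusted p = 1.02e-08). Its neighbour Ddc, the enzyme of dopamine and serotonin synthesis, had 3 fragments in a single Yme1l-/- library and none elsewhere. Per kilobase of transcript, in the authors' combined FPKM of WT and Yme1l-/- cells, Gnas had 576 and 356, Cd81 89.0 and 58.6, Grb10 75.5 and 53.4, and H13 69.9 and 59.8. In the same unit H19 was listed at 4.43 and 0, and Asb4 at 0.00636 and 12.7. Igf2 was listed at 0.321 and 0.256 and Mest at 1.12 and 6.07, smaller differences than in CPM.

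On chromosome 15, Trappc9, a trafficking complex subunit with maternal bias in brain, rose from 24.8 ± 1.34 to 40.1 ± 2.06 CPM (log2 fold change 0.69 ± 0.06, edgeR, adjusted p = 1.75e-06). Peg13, the paternally expressed non-coding RNA within an intron of Trappc9, fell from 6.61 ± 0.351 to 5.36 ± 0.136 CPM (log2 fold change -0.30 ± 0.10, edgeR, adjusted p = 0.0201). The loci of chromosome 15 had a median log2 fold change of 0.59, and with it removed Trappc9 had 0.10 (adjusted p = 0.178) and Peg13 -0.89 (adjusted p = 1.62e-05). The Peg13 call was lost without WT replicate 2 (adjusted p = 0.0612) and without Yme1l-/- replicate 2 (0.0681). The potassium channel Kcnk9 had no fragment. On chromosome 2, Blcap, a small membrane protein gene that hosts Nnat in an intron, had 31.8 ± 0.845 and 32.3 ± 2.31 CPM (log2 fold change 0.02 ± 0.06, edgeR, adjusted p = 0.789), and Nnat, the proteolipid neuronatin, had 3 to 10 fragments per library in both genotypes and was not tested.

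The Dlk1-Dio3 cluster on chromosome 12 was almost silent in both genotypes. The Notch-like ligand Dlk1, the retrotransposon-like gene Rtl1 and the non-coding RNA Meg3 had no fragment in any library, and the snoRNA host Rian had a single fragment in 1 WT library. Dio3, the enzyme that inactivates thyroid hormone, had 6, 9 and 12 fragments in WT and none in Yme1l-/- cultures, and the microRNA host Mirg had 10, 6 and 5 and none. The growth-linked zinc finger gene Zdbf2 on chromosome 1 had a like count, 5, 9 and 5 fragments against none, and Nap1l5, a histone chaperone relative, had 1 fragment in all. None of these passed the filter on low counts. Over the 19 untested genes, 8 had no fragment at all, 8 had fragments in WT cultures and not in Yme1l-/- cultures, and Ddc had fragments in a Yme1l-/- culture and not in WT. The matching shares over all untested loci were not counted, so these numbers show nothing particular to imprinted genes. The floor of 3 counts stood at 0.0589 to 0.0919 CPM, depending on the library.

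To show whether a cluster stood apart from the chromosome segment around it, tested loci within 1 Mb of an imprinted gene were described, leaving out the 56 genes and other genes listed as imprinted. Of 229 such neighbours, 79 rose and 79 fell, 69.0% in all against 67.7% of all loci, with a median log2 fold change of -0.05. Among clusters with at least 5 neighbours, and with genes at the floor placed at their bound, H19, Cdkn1c, Snrpn, Ndn, Peg3 and Airn were below the whole range of their neighbours. Above it were Asb4, Mest, Phactr2 and Zrsr1. Phlda2, placed at 3 counts with 2, 3 and 3 fragments observed, stood at -2.967, about level with its lowest neighbour at -2.957. The bound of Rasgrf1 was within the range of its neighbours, and so were Plagl1, Pon3 and Impact. Around Snrpn and Ndn, for example, 5 neighbours had log2 fold changes from -1.06 to 0.35, and around Peg3 11 neighbours ranged from -0.77 to 0.61. These placements are descriptions without a test.

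**Figure D3:**
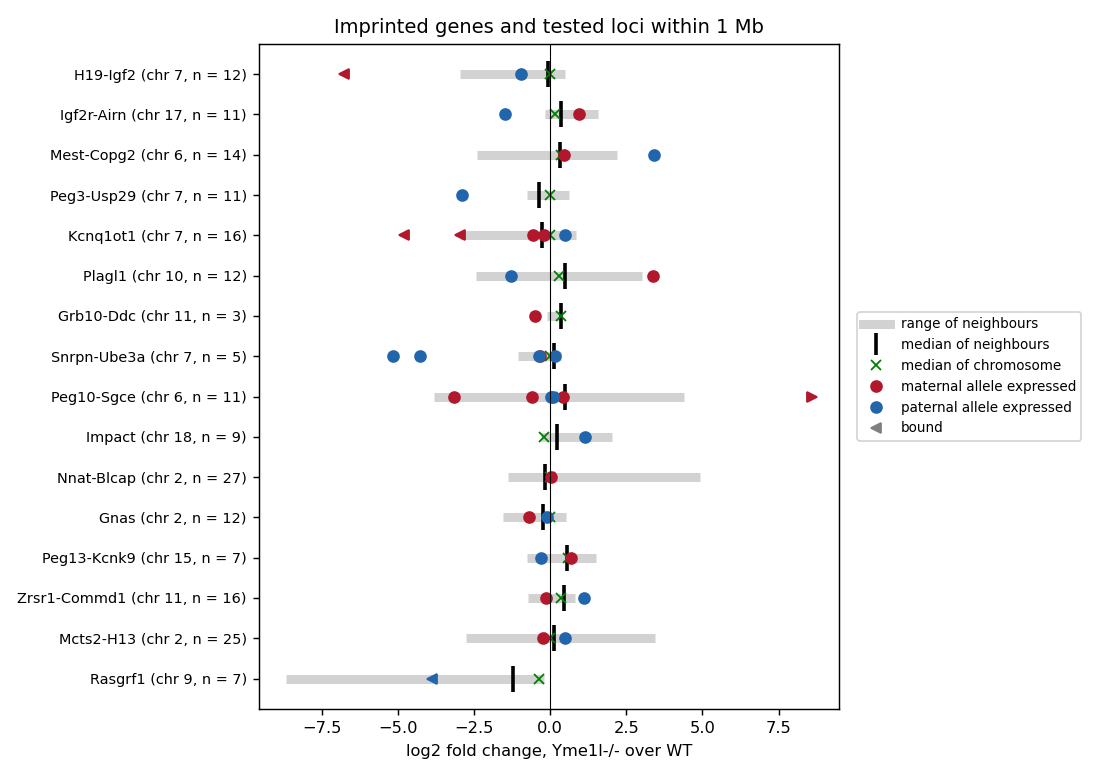
Log2 fold change (Yme1l-/- over WT) of the tested imprinted genes of 16 clusters (circles in red for maternal and blue for paternal expression, arrowheads for bounds), with the range (grey bar) and median (black tick) of n neighbouring tested loci within 1 Mb and the median of the chromosome (green cross). Asb4, Mest and H19 lie outside the grey bars, and Rasgrf1 lies inside the bar of a segment whose median is -1.23.

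The proteins that set, protect or read imprints were compared next, from a list of 27 genes of DNA methylation and imprint maintenance. Of 24 tested, 6 rose and 12 fell, 75.0% called against 67.7% of all loci, and none was called with a difference of 2-fold or more. The median was -0.35. With chromosome medians removed, 1 of them was called higher and the median was -0.16. Dnmt1, the maintenance methyltransferase, had 578.9 ± 24.2 CPM in WT and 454.1 ± 14.6 CPM in Yme1l-/- cells (log2 fold change -0.35 ± 0.05, edgeR, adjusted p = 7.25e-05), and its partner Uhrf1 had 323.0 ± 2.65 and 355.7 ± 4.67 CPM (0.14 ± 0.04, adjusted p = 0.00744). Zfp57, which protects imprints in early embryos, had 34.5 ± 0.277 and 34.8 ± 3.31 CPM (log2 fold change 0.01 ± 0.07, edgeR, adjusted p = 0.872). With chromosome medians removed, Dnmt1 had 0.01 (adjusted p = 0.879) and Uhrf1 -0.03 (adjusted p = 0.539), so neither call held in that setting.

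Trim28, the co-repressor recruited by ZFP57, had 479.5 ± 23.3 CPM in WT and 377.8 ± 14.2 CPM in Yme1l-/- cells (log2 fold change -0.34 ± 0.05, edgeR, adjusted p = 1.0e-04). Ctcf, the insulator protein of the H19-Igf2 control region, went from 200.8 ± 5.45 to 153.6 ± 6.19 CPM (-0.39 ± 0.05, adjusted p = 1.47e-05), and had -0.07 (adjusted p = 0.191) with chromosome medians removed. The de novo methyltransferases moved apart, with Dnmt3b up from 4.01 to 7.10 CPM (0.83 ± 0.13, edgeR, adjusted p = 1.17e-04) and Dnmt3a down from 33.8 to 20.7 CPM (-0.70 ± 0.09, edgeR, adjusted p = 3.74e-05). Arid4a, a chromatin factor known to act at the Prader-Willi region, had -0.68 ± 0.07, and Smchd1, a chromosome-structure protein that acts at imprinted clusters, had -0.55 ± 0.06 on the log2 scale, both lower. With chromosome medians removed, Dnmt3a had -0.27 (adjusted p = 0.0248) and Arid4a -0.24 (adjusted p = 0.0127).

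Of 18 genes of Polycomb complexes, H3K9 methylation and histone demethylation, which place or remove repressive and other histone marks, 7 rose and 7 fell, 77.8% called against 67.7% of all loci, and none differed by 2-fold or more, with a median of 0.04. Ring1, a Polycomb ubiquitin ligase, went from 17.2 to 29.8 CPM and Phf19, a Polycomb accessory factor, from 20.9 to 34.6 CPM. The histone demethylases Kdm1a and Kdm6a went from 130.2 to 77.4 CPM and from 62.3 to 37.5 CPM, and each of these 4 was called. Ezh2, the Polycomb methyltransferase, had 120.7 ± 4.70 and 153.2 ± 2.62 CPM (log2 fold change 0.34 ± 0.05, edgeR, adjusted p = 3.94e-05), and 0.003 with chromosome medians removed (adjusted p = 0.962). Among 27 further genes described as imprinted in some tissue or stage, 19 were tested, 5 rose and 11 fell, 84.2% called against 67.7% of all loci, with a median log2 fold change of -0.55. At least 2-fold, 3 rose and 8 fell, against 9.1% and 8.63% of all loci. Ano1, a chloride channel, went from 970, 981 and 937 fragments in WT to 1, 4 and 8 in Yme1l-/- cultures. Smoc1, a matrix protein, was at least 63.5-fold lower than 5.45 CPM in WT, and the transcription factor Wt1 at least 15.3-fold lower than 1.31 CPM. Adam23, an integrin-binding surface protein, was at least 26.1-fold higher in Yme1l-/- cells, at 2.40 CPM.

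**Figure D4:**
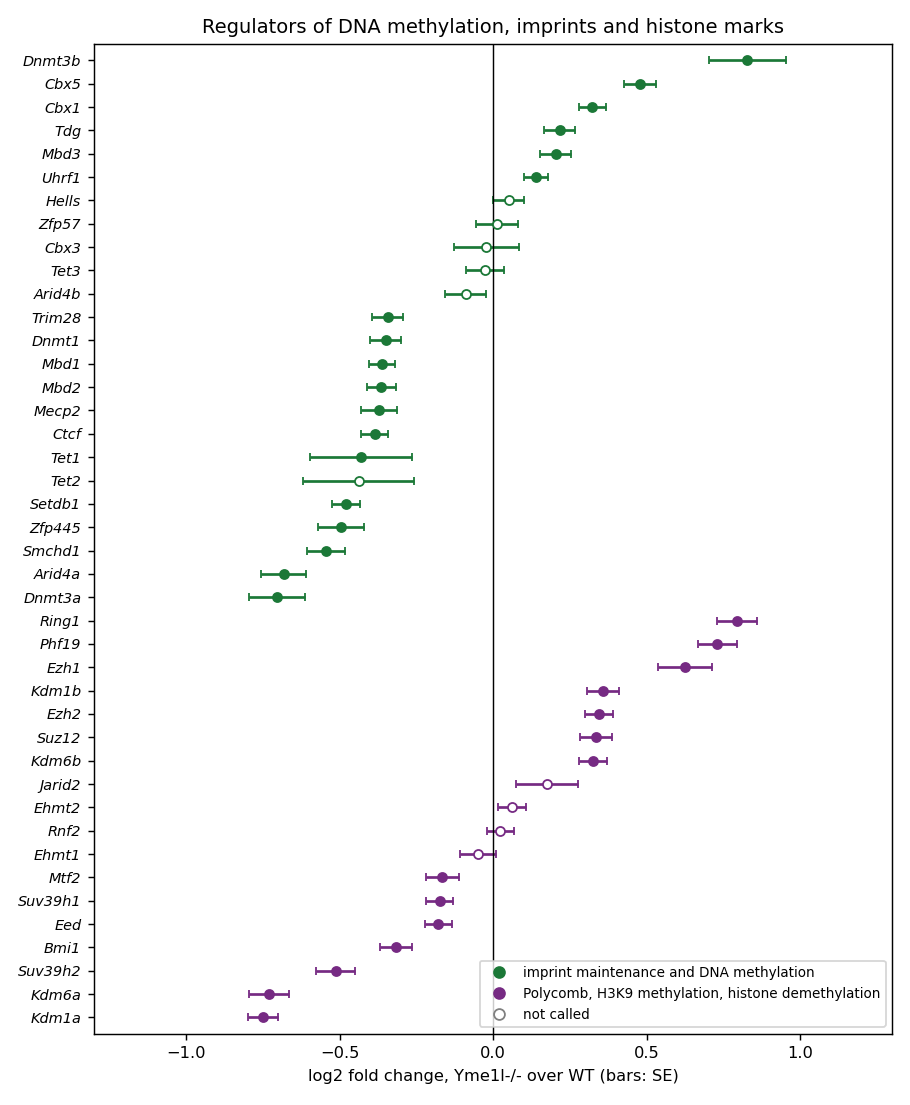
Log2 fold change (Yme1l-/- over WT) with its standard error for the 24 tested genes of DNA methylation and imprint maintenance (green) and the 18 genes of Polycomb complexes, H3K9 methylation and histone demethylation (purple), with open circles for genes that were not called. All values lie between -0.75 and 0.83.

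Values of the whole series bear on these comparisons. Libraries held 33180867 to 49351107 counted fragments, with the 2 deepest among the Yme1l-/- cultures, and Yme1l1 fell from 188.7 ± 5.16 to 39.1 ± 1.34 CPM (edgeR, adjusted p = 2.43e-11), in the direction of the labels. The summed level of 10 fibroblast markers was 10960 to 11520 CPM in WT and 6723 to 7206 CPM in Yme1l-/- cells, with Vim, Fn1 and Col1a2 lower, Col1a1 higher, and Thy1 and Lum under 1 CPM in every library. Epithelial markers (6 genes) summed to 33.0 to 34.9 CPM in WT and 0.334 to 0.686 CPM in Yme1l-/- cells, in WT almost wholly through Krt18. Krt18 and Epcam both fell, Epcam from 1.29 to 0.0848 CPM (edgeR, adjusted p = 1.49e-06), and the other 4, Cdh1 among them, were under 1 CPM in every library. Endothelial markers (5 genes) summed to 0.888 to 1.44 and 1.67 to 2.00 CPM, haematopoietic markers (6) to 1.80 to 1.99 and 3.74 to 4.50 CPM, neural markers (5, chiefly Map2) to 22.5 to 27.4 and 6.26 to 8.44 CPM, and pluripotent and trophoblast markers (8, of which 6 had no fragment) to 0.272 to 0.55 and 0.236 to 0.635 CPM. The part of these shifts in the differences of the imprinted genes was not tested.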

How the data were processed

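Poly(A)-selected RNA of 3 WT and 3 Yme1l-/- cultures, labelled as separate cultures, was sequenced by the authors, mapped to mm10 (GRCm38, Ensembl annotation) with HISAT2 2.0.4, assembled with StringTie 1.3.3 and compared with Cuffdiff 2.2.1. The deposited raw counts are whole fragment counts per assembled locus, without normalization. Overlapping transcripts were merged by the authors into loci with joined names, which held 7 of the 56 imprinted genes, 4 of them tested. How multimapping fragments and strand were counted is not given in the sources used here, so values of overlapping pairs (Airn and Igf2r, Kcnq1ot1 and its host Kcnq1, Nespas and Gnas, Mest and Copg2, Zrsr1 and Commd1) are uncertain. The authors' comparison table gave FPKM as 1 combined value per genotype, used only to set levels of genes side by side. Its fold changes and p-values, which are the authors' own, were not used.

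All 51499 loci went into edgeR 4.0.16 (R 4.3.3, limma 3.58.1). Low loci were dropped by filterByExpr at a minimum count of 10, libraries were scaled by TMM and the genotypes compared by the quasi-likelihood test (glmQLFit with robust estimation, two-sided, no covariates). P-values were adjusted by Benjamini-Hochberg over 13867 loci, with a call at adjusted p under 0.05. CPM used TMM-scaled library sizes of 33180867 to 49351107 counted fragments before scaling, and the biological coefficient of variation was 8.47%. Bounds used a floor of 3 counts and take no account of the spread between cultures. For Phlda2, with 2, 3 and 3 fragments, the floor is close to the observed level, so its bound does not cover counting error. The fit was tested on simulated data. Same-numbered cultures of the genotypes did not deviate together (r = 0.144, -0.0939 and 0.048), so the numbers were not treated as pairs. Gene positions and strands are from GENCODE M21, and neighbours were taken by these positions, leaving out 45 tested loci with no single position. Cluster, parental allele and role of each gene are textbook knowledge and were not measured.

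The imprinted genes, the other lists and the alternatives, including the removal of chromosome medians, were chosen with earlier results of these data known. Full values are given for genes called with at least 2-fold difference and at least 1 CPM in the higher genotype and for their cluster partners. Of the regulator lists, Dnmt1, Uhrf1, Zfp57, Trim28, Ctcf and Ezh2 were always named, with the 4 called genes of largest change in each list. Alternatives were other scalings (RLE, upper-quartile), DESeq2 1.42.0, other filters, a replicate block, removal of chromosome medians, leaving out merged loci, a 500 kb window and leaving out each culture.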

Additional observations from a re-analysis of the deposited data

How the results depend on the processing

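Over 13 alternatives, 450 of 475 values of imprinted genes kept direction and call, and 25 of 31 called genes kept both in every alternative that gave a value for them (genes at the floor and Snrpn had none with at least 10 counts in every sample); the exceptions were Copg2, Pon2, Trappc9, Tssc4, Peg13 and Commd1, of which the last 3 lost their call under upper-quartile scaling (adjusted p = 0.0731, 0.0525 and 0.228). The sign turned for Peg10 (-0.307) and Sgce (-0.252) with chromosome medians removed. It also turned for uncalled values close to 0: Peg10 without WT replicate 2 (-0.007), Mkrn3 without WT replicate 2 (-0.01) or Yme1l-/- replicate 1 (-0.006), Blcap without WT replicate 3 (-0.002) or Yme1l-/- replicate 1 (-0.036), and Nespas without Yme1l-/- replicate 3 (0.011). When single cultures were left out, values reached 0.103 for Peg10, 0.373 for Mkrn3, 0.06 for Blcap, -0.228 for Nespas and 0.086 for Zfp57 at the other end of their ranges. With chromosome medians removed, 12 of 32 called regulators were no longer called, and 9 of these, none of them called in the new direction, turned in sign: Dnmt1 (0.01), Uhrf1 (-0.029), Cbx5, Cbx1, Tdg, Mbd3, Suz12, Kdm6b and Suv39h1. The uncalled Zfp57 (-0.154), Hells and Ehmt2 turned as well, and Zfp57 also without Yme1l-/- replicate 2 (-0.046). Upper-quartile scaling brought Sgce past the threshold (0.149, adjusted p = 0.0409).

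Without a filter on low counts the median log2 fold change was -0.455 over imprinted genes, -0.396 over maternally and -0.568 over paternally expressed ones and -0.729 over the further imprinted genes, since more genes near 0 in Yme1l-/- cells enter. With at least 10 counts in every sample, which drops the 5 genes at the floor and Snrpn, it was -0.124 over all and -0.033 over the paternally expressed, and it was also -0.033 over the latter without merged loci. With chromosome medians removed, 3 maternally expressed genes were called higher, the paternal median was -0.329, the median of the further imprinted genes -0.713, that of imprint maintenance -0.156 (1 called higher) and that of the Polycomb list -0.026. Upper-quartile scaling gave -0.288 and 0.101 for the last 2 lists. Leaving out single cultures moved the imprint maintenance median between -0.355 and -0.302. With a 500 kb window 49 neighbours rose and 48 fell. The causes of the other shifts were not tested.

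With the replicate number as a block, 11 imprinted genes rose and 21 fell, with a median of -0.24, and among the 56 imprinted genes only the call of Kcnq1ot1 changed (0.51). Levels under 3 counts (0.0589 to 0.0919 CPM by library) could not be compared at this depth.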
